A study of Mus musculus with 16 samples.

Results

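The genes described are 10 of the 19505 genes on the array: the receptor transporters Rtp1 and Rtp2, the receptor choice genes Lhx2, Ldb1 and Kdm1a, and the stress response genes Atf5, Atf4, Ddit3, Xbp1 and Hspa5. They were chosen by name. All 10 were present by platform gene symbol, each represented by the probe set with the highest mean over 16 arrays, and Ddit3 had 2 probe sets.

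Affymetrix arrays measured the RNA of cells sorted from the olfactory mucosa of S100a5-tauGFP mice on the C57BL/6 strain, which report S100a5, a gene induced by activity of olfactory sensory neurons. The 24 mice, of both sexes and 7 to 12 weeks old, spent 40 h singly in clean air chambers, and after 26 h received 10 s pulses every 20 min. The groups were odor (isoamyl acetate mixed with whiskey lactone) titled GFP+, odor titled GFP-, vehicle (filtered air) titled GFP+ and vehicle titled GFP-, with 4 libraries each. Every library pooled cells of 3 mice, and the 8 pools each gave both fractions.

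The labels limit what a fraction is called. Titles and cell type tags contradict each other in all 16 samples, and fractions here follow the titles; under the tags every fraction difference would change sign. S100a5 went against the titles: odor pools differed by -1.16 ± 0.36 (SE), titled GFP+ minus titled GFP- (limma adjusted p = 0.0625 over 16 libraries and 0.000588 over 14). Within pools S100a5 differed by -1.86 to -0.65 in 7 of 8, but by 1.38 in vehicle pool 3, so member differences and counts of called genes are given for all 16 libraries and for the 14 without that pool. Odor fraction differences are the same in both sets, and their SE and intervals are those of the 16-library fit unless stated. Omp, which marks mature neurons of the epithelium, lay between 18.44 and 18.68 in all 16 libraries, while all 6 horizontal basal cell markers averaged below the median of the negative control probe sets, 5.46. All 10 genes averaged above that median. Values are levels in the deposited log2 units, reaching 19.40, and the step that took them above the 16-bit limit of 16 is not given in the sources used here. Differences are therefore not turned into folds, and levels of different genes are not set against each other. In these sorted bulk samples, fewer cells of a type and less RNA per cell cannot be told apart.

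A maturing olfactory sensory neuron settles on a single odorant receptor gene. Lhx2 and its partner Ldb1 act at the enhancers that activate receptor genes, and Kdm1a, a histone demethylase, lifts repressive marks from the chosen gene. Receptor protein in the endoplasmic reticulum (ER) is sensed by the kinase PERK, and the following slowdown of translation favours translation of Atf5 mRNA. Atf5 protein in turn promotes maturation and the shutdown of Kdm1a, which makes the choice stable. Rtp1 and Rtp2 then carry receptors to the cell surface.

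Xbp1 was the only member called between fractions. In odor pools it was higher in titled GFP+ by 0.44 ± 0.14 (SE, limma) over the 14 libraries and passed the threshold (adjusted p = 0.0456), but not over all 16 (adjusted p = 0.0943); of all genes, 13.2% passed over 14 libraries and 6.97% over 16. Rtp2 was lower in titled GFP+ in 6 of 8 pools without passing the threshold, as was Atf5. The share of all genes of which this holds was not counted. Between the pool means of odor and vehicle 0 of 10 members passed, where 0.0103% of all genes did. Among the 8 members other than Xbp1 and Rtp2 the largest fraction difference in odor pools was 0.17, for Ddit3.

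**Figure D1:**
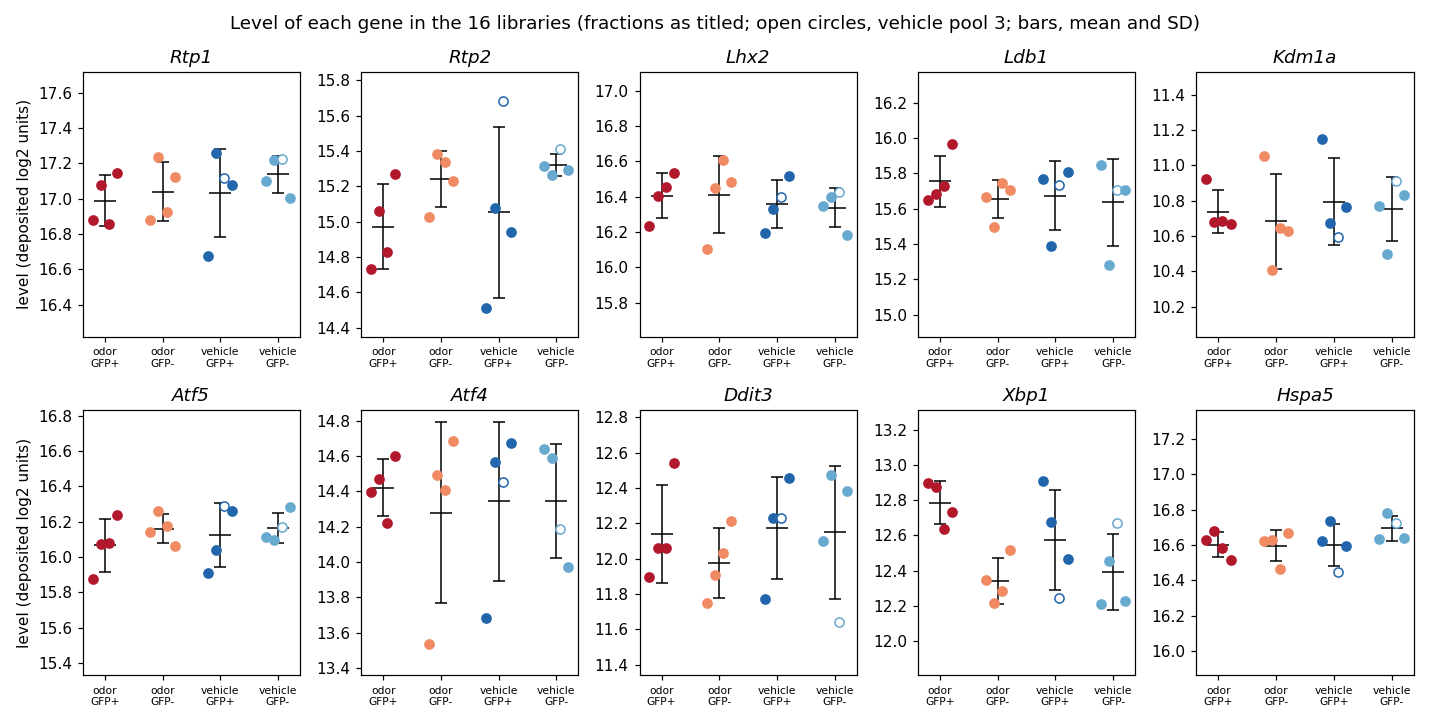
Level of each of the 10 genes (deposited log2 units) in odor titled GFP+, odor titled GFP-, vehicle titled GFP+ and vehicle titled GFP-, 4 libraries each in the order of replicates 1 to 4. Points are libraries, open circles are vehicle pool 3, and bars are the mean and SD; for Xbp1 the odor titled GFP+ libraries all lie above the odor titled GFP- ones.

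Xbp1 encodes a transcription factor that is switched on when IRE1 splices its mRNA during ER stress, and it is also needed by highly secretory cells such as plasma cells. The array gives the level of the gene, and splicing was not measured. Xbp1 was 12.89, 12.87, 12.64 and 12.73 in odor titled GFP+ replicates 1 to 4, against 12.35, 12.22, 12.29 and 12.52 in odor titled GFP-. It was 12.91, 12.68, 12.25 and 12.47 in vehicle titled GFP+ replicates 1 to 4, against 12.21, 12.46, 12.67 and 12.23 in vehicle titled GFP-. The odor groups did not overlap, and the share of all genes of which this holds was not counted. The vehicle groups overlapped through replicate 3, where the titled GFP+ library was low and the titled GFP- library high. Without that pool they were barely apart, with 12.47 the lowest in titled GFP+ and 12.46 the highest in titled GFP-.

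Within pools, Xbp1 was higher in the titled GFP+ library in 7 of 8 pools, by 0.22 to 0.69 in those 7, and lower by 0.42 in vehicle pool 3. Its direction was opposite to that of S100a5 in 8 of 8 pools, as was the case for 9.98% of all genes. The vehicle difference was 0.18 ± 0.15 (SE) over 16 libraries (limma adjusted p = 0.735; 95% interval -0.14 to 0.51) and 0.38 ± 0.16 over 14 (adjusted p = 0.162; 0.05 to 0.72). The difference between the odor and vehicle fraction differences was 0.26 over 16 libraries (95% interval -0.20 to 0.72) and 0.06 over 14 (-0.39 to 0.51), so it was not shown that the treatments differ in this respect.

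The Xbp1 call was narrow. Treating libraries of the same mice as a block with an estimated correlation gave limma adjusted p = 0.0295 over 14 libraries and 0.0917 over 16, whereas each pool as a fixed term gave 0.0788 and 0.212. The call was lost when 9 of the 14 libraries were left out in turn (odor titled GFP+ replicates 1, 2 and 4, odor titled GFP- replicates 1, 2 and 3, vehicle titled GFP+ replicate 2, and vehicle titled GFP- replicates 1 and 4; adjusted p up to 0.126). Centring each array on its own median reduced the difference to 0.09 (adjusted p = 0.557 over 14 libraries). That centring shifts every gene by the same amount, and it moved the median difference of all genes to -0.43 from -0.08. The distance of Xbp1 from that median is therefore unchanged by construction and is no check of the call.

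**Figure D2:**
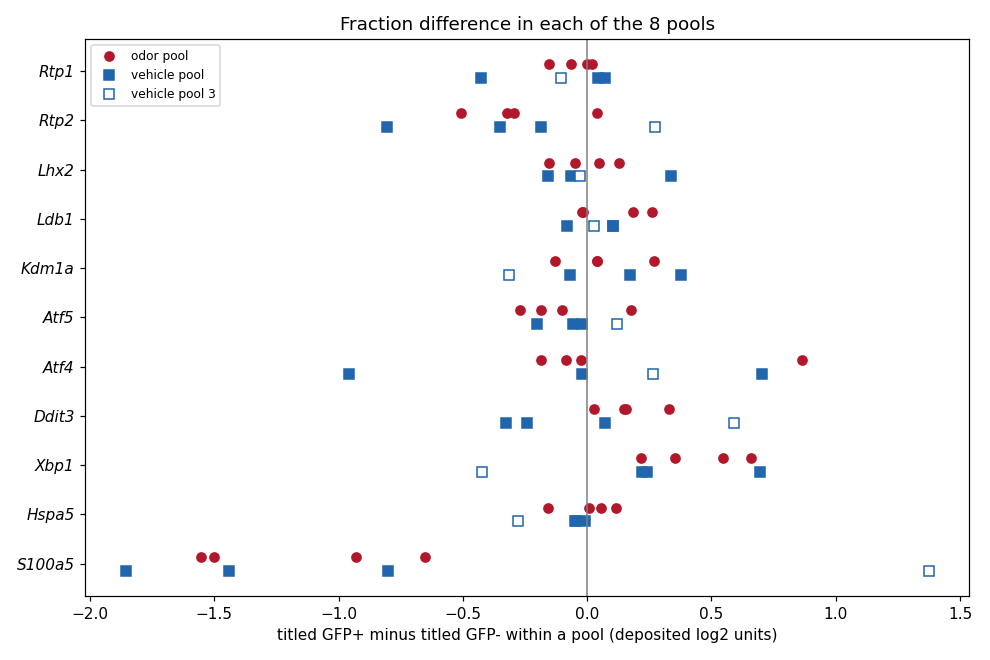
Titled GFP+ minus titled GFP- level within each of the 8 pools (horizontal axis, deposited log2 units) for the 10 genes and S100a5. Odor pools are circles, vehicle pools squares and vehicle pool 3 an open square; Xbp1 lies to the right of 0 in every pool except vehicle pool 3, which is also the only pool with S100a5 to the right of 0.

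Markers of several other cell types moved with the same fraction as Xbp1. Horizontal basal cell markers did not, with mean levels per library of 3.76 to 3.93 in odor titled GFP+ and 3.62 to 3.92 in odor titled GFP-. Of all genes, 8.59% were called higher in odor titled GFP+ over 14 libraries and 4.57% over 16. Of 11 measured myeloid markers, 11 were called higher over 14 libraries and 10 over 16, and their mean level per library was 10.77 to 13.26 there, against 5.29 to 7.11 in odor titled GFP-. The sustentacular markers, of which 8 of 11 were called higher over 14 libraries and 3 over 16, averaged 8.91 to 10.14 in odor titled GFP+ and 7.42 to 8.32 in odor titled GFP-. All 9 microvillar and ionocyte-like markers were called higher in both sets (7.20 to 8.25 in odor titled GFP+, 4.69 to 4.99 in odor titled GFP-). Over 14 libraries 4 of 8 Bowman gland markers, 7 of 7 lymphoid markers and 2 of 8 plasma cell markers were called higher, and over 16 libraries 3, 4 and 1 of them. Of the plasma cell markers, 7 of 8 averaged below the negative control median, as did 5 of 7 lymphoid markers. So did 2 of 8 Bowman gland, 2 of 11 sustentacular, 3 of 9 microvillar and ionocyte-like and 3 of 6 globose basal cell markers. None of the myeloid or immature neuron markers did. Of 12 immature neuron markers 5 were called higher in both sets, and of 6 globose basal cell markers 6 over 14 libraries and 5 over 16. Of 14 mature neuron markers 4 were called lower over 14 libraries and 2 over 16, where 4.59% and 2.39% of all genes were. Cidea, called lower in both sets, is counted again among the activity genes below, and the mature neuron list also holds the member Rtp1. The part of these cells in the Xbp1 difference was not tested.

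The genes whose pattern was most like that of Xbp1 over the 16 libraries were Ehf, an epithelial transcription factor (Pearson r = 0.94), and Dsg2, a desmosomal cadherin (r = 0.94). Ehf lay between 6.74 and 8.03 in odor titled GFP+ and between 4.57 and 5.30 in odor titled GFP-. In vehicle pool 3 it was 4.66 in titled GFP+ and 6.94 in titled GFP-, the reverse of the other pools. The points share pools and fractions, so these correlations describe the libraries only.

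The upstream bases of Xbp1 and of Hspa5 are shown because Hspa5 is the classical target of the unfolded protein response and Xbp1 the member that passed the test. The ER stress response element was searched as CCAAT, 9 bases of any kind and CCACG, on both strands, in RefSeq windows (GRCm38.p6) of 250 bases before to 50 after each start. It occurred in 0.119% of 32851 windows and, of the 9 members with a window, in Hspa5 only, 65 to 47 bases before the start. The 250 bases before the start of Hspa5 (chr2:34771840-34772089, plus strand) and of Xbp1 (chr11:5520391-5520640, plus strand) read as follows, with the element in capitals.
Hspa5: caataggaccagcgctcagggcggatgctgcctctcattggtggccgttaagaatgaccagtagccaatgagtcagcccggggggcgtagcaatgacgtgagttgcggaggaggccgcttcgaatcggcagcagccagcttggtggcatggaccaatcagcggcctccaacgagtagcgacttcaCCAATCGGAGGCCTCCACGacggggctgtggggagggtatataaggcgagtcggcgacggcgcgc
Xbp1: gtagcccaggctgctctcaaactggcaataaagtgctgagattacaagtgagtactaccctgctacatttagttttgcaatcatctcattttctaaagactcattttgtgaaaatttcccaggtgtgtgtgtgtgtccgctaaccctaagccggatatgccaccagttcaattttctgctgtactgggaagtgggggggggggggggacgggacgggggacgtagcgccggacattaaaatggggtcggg
TTGC joined to ATCA, a binding site of Atf4 dimers searched on both strands, occurred in 0.895% of all windows and in none of the 9 members. These matches describe letters in a window and nothing more.

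Hspa5, the ER chaperone also called BiP, had the narrowest range of the members, 0.34 over 16 libraries, where the median gene ranged over 1.10. Ranges were not compared among genes of like level, and Omp ranged over 0.24. It was 16.63, 16.68, 16.58 and 16.51 in odor titled GFP+ replicates 1 to 4, against 16.62, 16.63, 16.47 and 16.67 in odor titled GFP-. It was 16.62, 16.73, 16.44 and 16.59 in vehicle titled GFP+, against 16.63, 16.78, 16.72 and 16.64 in vehicle titled GFP-. The groups overlapped in both treatments. The odor fraction difference was 0.01 ± 0.10 (SE; 95% interval -0.22 to 0.23; limma adjusted p = 0.986) and the vehicle one -0.10 ± 0.10 (-0.32 to 0.13; adjusted p = 0.801). Without pool 3 the vehicle difference was -0.03 ± 0.13 (-0.32 to 0.25; limma adjusted p = 0.917).

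Atf5, the transcription factor that ties receptor protein to a stable choice, ranged over 0.41. Of all genes, whatever their level, 0.805% had a narrower range. It was 15.87, 16.08, 16.08 and 16.24 in odor titled GFP+ replicates 1 to 4, against 16.14, 16.26, 16.18 and 16.06 in odor titled GFP-. It was 15.91, 16.04, 16.29 and 16.26 in vehicle titled GFP+, against 16.11, 16.10, 16.17 and 16.28 in vehicle titled GFP-. The groups overlapped, with the lowest library of each titled GFP+ group in replicate 1. The fraction differences were -0.09 ± 0.12 in odor and -0.04 ± 0.12 in vehicle pools (SE; 95% intervals -0.35 to 0.16 and -0.30 to 0.22). Without pool 3 the vehicle difference was -0.09 ± 0.15 (-0.41 to 0.23). Atf5 is controlled at the level of translation, which an mRNA array does not read.

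Atf4, the transcription factor at the centre of the integrated stress response, ranged over 1.15 in the 16 libraries. It was 14.40, 14.47, 14.22 and 14.60 in odor titled GFP+ replicates 1 to 4, against 13.53, 14.49, 14.40 and 14.69 in odor titled GFP-. It was 13.68, 14.57, 14.45 and 14.67 in vehicle titled GFP+, against 14.64, 14.59, 14.19 and 13.97 in vehicle titled GFP-. The low libraries were spread over 3 groups and followed neither fraction nor treatment. The odor fraction difference was 0.14 ± 0.26 (SE; 95% interval -0.41 to 0.69), an interval that holds both 0 and the size seen for Xbp1. The vehicle difference was -0.0032 ± 0.26 over 16 libraries (-0.55 to 0.55) and -0.09 ± 0.30 over 14 (-0.74 to 0.56). The genes most like Atf4 over the 16 libraries were Krtcap2, an oligosaccharyltransferase subunit, and Dpm2, a subunit of dolichol-phosphate mannose synthase (Pearson r = 0.96 and 0.95). Both were lowest in the same libraries as Atf4: odor titled GFP- replicate 1, vehicle titled GFP+ replicate 1 and vehicle titled GFP- replicate 4. These correlations too describe the libraries only.

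Ddit3 encodes CHOP, a factor induced late in ER stress. It lay between 11.89 and 12.54 in odor titled GFP+ and between 11.75 and 12.21 in odor titled GFP-. It lay between 11.77 and 12.45 in vehicle titled GFP+ and between 11.64 and 12.47 in vehicle titled GFP-, with the lowest value in pool 3. All groups overlapped, although Ddit3 was higher in titled GFP+ in 4 of 4 odor pools. The share of all genes of which the latter holds was not counted. The odor difference was 0.17 ± 0.20 (SE; 95% interval -0.27 to 0.60; limma adjusted p = 0.703). The vehicle difference was 0.02 ± 0.20 over 16 libraries and -0.16 ± 0.21 over 14. Its sign was not settled, as it also changed in 2 of 16 fits that each left out 1 library. The second Ddit3 probe set averaged 10.31 ± 0.30 in odor titled GFP+ and 10.28 ± 0.33 in odor titled GFP- (SD, n = 4 each). There odor replicate 4 ran the other way, at 10.75 in titled GFP+ and 10.77 in titled GFP-.

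Rtp1 and Rtp2 bring odorant receptors to the plasma membrane. Rtp1 lay between 16.86 and 17.14 in odor titled GFP+, against 16.88 to 17.23 in odor titled GFP-. It lay between 16.68 and 17.26 in vehicle titled GFP+, against 17.01 to 17.22 in vehicle titled GFP-. The groups overlapped, and the differences were -0.05 ± 0.14 in odor and -0.10 ± 0.14 in vehicle pools (SE; 95% intervals -0.35 to 0.25 and -0.40 to 0.19). Without pool 3 the vehicle difference was -0.10 ± 0.18 (-0.48 to 0.27).

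Rtp2 differed more. It was 14.73, 15.06, 14.83 and 15.27 in odor titled GFP+ replicates 1 to 4, against 15.03, 15.38, 15.34 and 15.23 in odor titled GFP-. It was 14.51, 15.08, 15.69 and 14.94 in vehicle titled GFP+, against 15.32, 15.26, 15.41 and 15.29 in vehicle titled GFP-. The odor groups overlapped, with replicate 4 slightly higher in titled GFP+, and the vehicle groups through replicate 3 alone. The difference was -0.27 ± 0.20 in both treatments over 16 libraries (limma adjusted p = 0.475 in odor and 0.696 in vehicle). Over 14 libraries it was -0.27 ± 0.16 in odor (adjusted p = 0.336; 95% interval -0.61 to 0.07) and -0.45 ± 0.18 in vehicle (adjusted p = 0.161; -0.84 to -0.05). With arrays centred on their medians the 14-library differences became -0.62 and -0.80 and passed the threshold (adjusted p = 0.00913 and 0.00691), as did those of Atf5, Hspa5 and Rtp1 in both treatments (differences of -0.34 to -0.46), against medians of all genes of -0.43 in odor and -0.46 in vehicle.

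**Figure D3:**
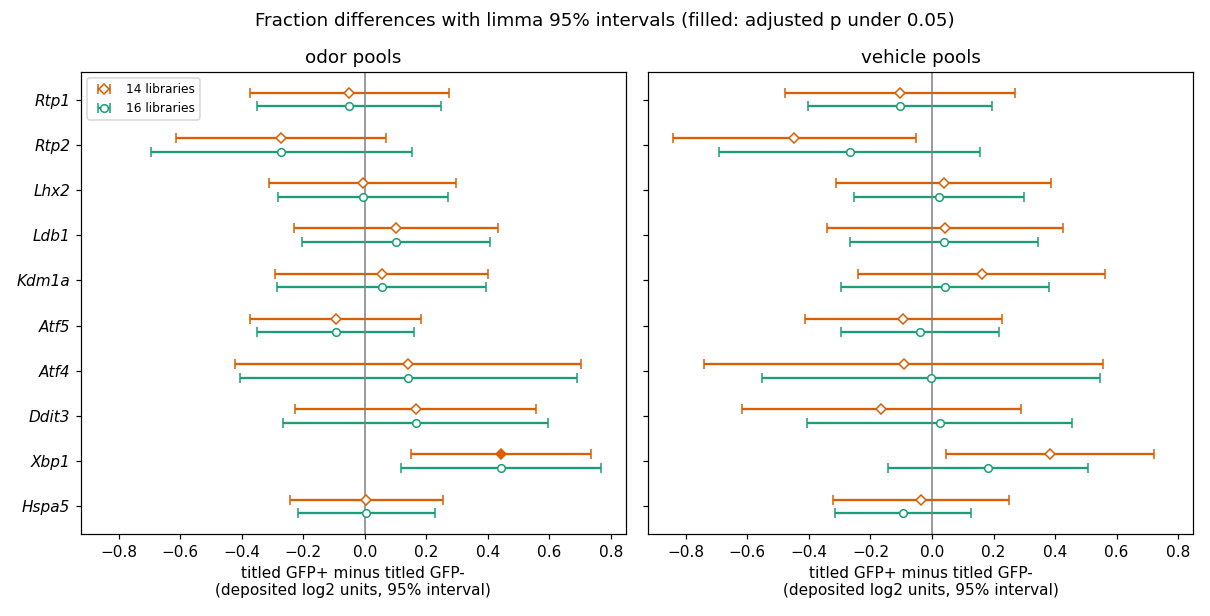
Titled GFP+ minus titled GFP- difference of each gene in odor pools (left) and vehicle pools (right), with limma 95% intervals, in deposited log2 units. Diamonds are the fit over 14 libraries and circles the fit over 16; the only filled symbol, for adjusted p under 0.05, is Xbp1 in odor pools over 14 libraries.

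Lhx2, a LIM homeodomain factor, and Ldb1, the adaptor that joins such factors at enhancers, are measured here at mRNA level only. Lhx2 lay between 16.23 and 16.53 in odor titled GFP+ and between 16.10 and 16.61 in odor titled GFP-, and between 16.19 and 16.52 in vehicle titled GFP+ and 16.18 and 16.42 in vehicle titled GFP-. Its odor difference was -0.01 ± 0.13 (SE; 95% interval -0.28 to 0.27). Ldb1 lay between 15.65 and 15.97 in odor titled GFP+ and between 15.50 and 15.75 in odor titled GFP-, and its odor difference was 0.10 ± 0.14 (95% interval -0.20 to 0.41). In vehicle, Ldb1 was low in both libraries of pool 2, at 15.39 in titled GFP+ and 15.28 in titled GFP-. The vehicle differences were 0.02 ± 0.13 for Lhx2 and 0.04 ± 0.14 for Ldb1 over 16 libraries, and 0.04 ± 0.16 (95% interval -0.31 to 0.39) and 0.04 ± 0.18 (-0.34 to 0.42) over 14.

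Kdm1a, also called Lsd1, was 10.92, 10.68, 10.68 and 10.67 in odor titled GFP+ replicates 1 to 4, against 11.05, 10.41, 10.65 and 10.63 in odor titled GFP-. It was 11.15, 10.67, 10.60 and 10.76 in vehicle titled GFP+, against 10.77, 10.50, 10.91 and 10.83 in vehicle titled GFP-. The groups overlapped, and both libraries of odor pool 1 were the highest of their groups. The fraction differences were 0.05 ± 0.16 in odor and 0.04 ± 0.16 in vehicle pools (SE; 95% intervals -0.28 to 0.39 and -0.30 to 0.38). Without pool 3 the vehicle difference was 0.16 ± 0.19 (-0.24 to 0.56; limma adjusted p = 0.676), its size resting on that pool. Among pairs of members, Kdm1a and Atf4 had the most negative correlation over the 16 libraries (Pearson r = -0.75), a description over libraries that share pools. The genes most like each of the other members had Pearson r from 0.82 (Ogt, with Ldb1) to 0.93 (Drc3, with Rtp2); for Kdm1a they were Tbl1x and Ubxn7 (0.90 and 0.89), for Lhx2 Gnptab and Zfp965 (0.92 and 0.90), and for Atf5 Nadsyn1 and Mthfsd (0.89 and 0.88).

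The number of members called lay near the share of all genes called, and nothing particular to the members is read from it. In odor pools 0 of 10 members passed over 16 libraries, where 6.97% of all genes did, and 1 of 10 (Xbp1) over 14 libraries, where 13.2% did. In vehicle pools 0 of 10 passed in both sets, with 0% of all genes called over 16 libraries and 11.2% over 14. For the 0 calls at 16 libraries in vehicle pools, 1912 of 19505 genes and 0 of 10 members had an unadjusted p under 0.05. The median size of the odor fraction difference was 0.10 over the members and 0.21 over all genes, whatever their level. Differences were not compared among genes of like level.

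Odor against vehicle was compared in means of both fractions of a pool, which do not depend on which fraction a library is called. Over 8 pools 0 of 10 members passed, with 0.0103% of all genes called; the same share was called over the 7 pools without vehicle pool 3, again with 0 members. All 10 members overlapped between treatments. The share of all genes of which this holds was not counted, so nothing particular to the members is read from it. For the members, limma adjusted p lay between 0.891 and 0.995 over 8 pools and between 0.798 and 0.999 over 7. Xbp1 averaged 12.56 ± 0.08 in odor pools and 12.48 ± 0.10 in vehicle pools (SD, n = 4 each; exact permutation p = 0.286, two-sided, against a smallest possible p of 0.0286). Hspa5 averaged 16.60 ± 0.06 in odor pools and 16.65 ± 0.08 in vehicle pools, and Atf5 16.11 ± 0.07 in odor pools and 16.15 ± 0.12 in vehicle pools (SD, n = 4 each; exact permutation p = 0.429 and 0.629). The 95% intervals for odor minus vehicle ran from -0.16 to 0.32 for Xbp1, from -0.27 to 0.18 for Hspa5 and from -0.46 to 0.25 for Ddit3 over 8 pools. Over 7 pools they ran from -0.20 to 0.34 for Xbp1, from -0.32 to 0.18 for Hspa5 and from -0.56 to 0.20 for Ddit3.

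**Figure D4:**
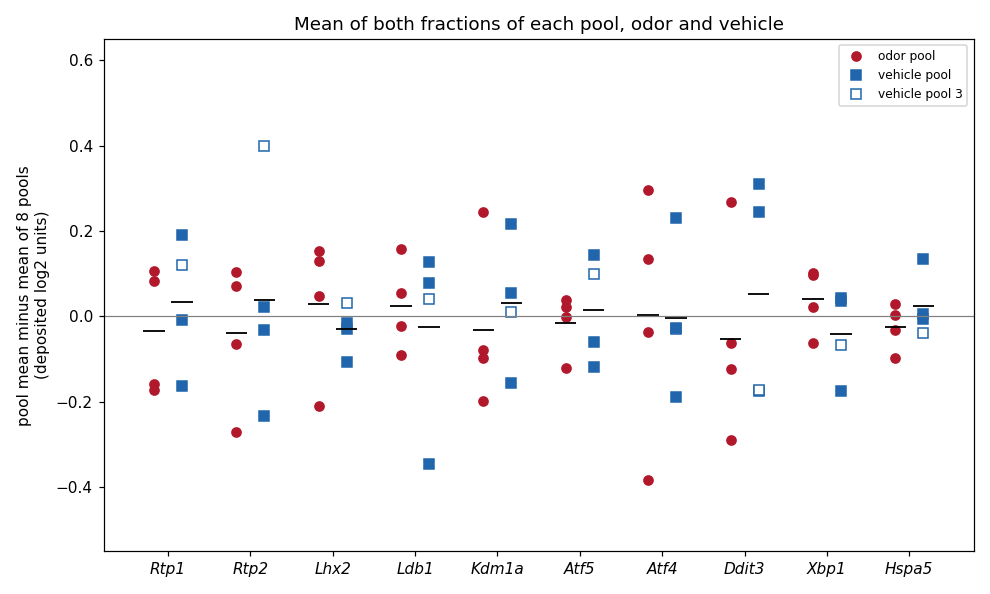
Mean of both fractions of each pool, minus the mean of the 8 pools (vertical axis, deposited log2 units), for odor pools (circles, left of each pair) and vehicle pools (squares, right; open for vehicle pool 3). Horizontal lines are group means. For all 10 genes the odor and vehicle pools overlap, and the share of all genes of which this holds was not counted.

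Within a single fraction the result was similar. Between odor and vehicle in titled GFP+, 0 of 10 members passed in either set (0% of all genes over 16 libraries, 0.0359% over 14), and in titled GFP- again 0 of 10 did (0.0103% and 0.0256%). The test of whether the fraction difference itself differed between treatments called 0 of 10 members, with 0.00513% of all genes over 16 libraries and 0.0103% over 14. In titled GFP+ over 16 libraries, 908 genes and 0 members had an unadjusted p under 0.05.

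Other genes of the same pathways were counted in odor pools, with differences, SE and adjusted p from the fit over 14 libraries. Of all genes 8.59% were called higher in titled GFP+ and 4.59% lower over 14 libraries, and 4.57% and 2.39% over 16. The lists hold 10 to 21 genes with at most 2 calls in a direction, so the counts describe them and set no list apart from all genes. Of 14 receptor choice factors, 1 was called higher over 14 libraries and 0 over 16, near the share of all genes; the gene was Tox, a nuclear factor better known from lymphocyte development, at 1.27 ± 0.25 (SE; limma adjusted p = 0.00248). Adcy3, the adenylyl cyclase of olfactory transduction, differed by -0.29 ± 0.12 without passing (adjusted p = 0.14). The list median was -0.08, as was that of all genes.

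Of 13 heterochromatin and histone methylation genes, 2 were called higher and 1 lower over 14 libraries (8.59% and 4.59% of all genes), and 1 higher and 0 lower over 16 (4.57% and 2.39%). Hdac2, a histone deacetylase also listed as an immature neuron marker, was higher by 0.76 ± 0.15 (SE; limma adjusted p = 0.0024) and Rcor1, the scaffold that joins Kdm1a to deacetylases, by 0.61 ± 0.15 (adjusted p = 0.0129). Suv39h2, a histone methyltransferase, fell by 0.61 (adjusted p = 0.015). In vehicle pools over 14 libraries Rcor1 and Suv39h2 passed in the same directions, at 0.77 and -0.88.

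Of 14 trafficking genes, 1 was called higher and 1 lower in either set, near the shares of all genes over 14 libraries (8.59% and 4.59%). Reep5, an ER-shaping protein of a family that aids receptor export, was higher by 2.54 ± 0.32 (SE; limma adjusted p = 4.27e-05 over 14 libraries), and by 2.47 in vehicle pools. Sec24d, a cargo-binding subunit of the coat of ER-derived vesicles, fell by 0.52 (adjusted p = 0.0187). Calr and Canx, the lectin chaperones, stand in this list and in that of the ER chaperones, and were not called in either set.

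Of 20 genes of the PERK and integrated stress response, 2 were called higher and 0 lower in both sets, where 8.59% of all genes were called higher over 14 libraries and 4.57% over 16. They were Nupr1, a stress-induced nuclear protein, at 1.95 ± 0.29 (SE), and Slc7a11, the cystine transporter, at 1.33 ± 0.26 (limma adjusted p = 0.000182 and 0.00196 over 14 libraries). Of 21 IRE1 and XBP1 genes, 2 were called higher over 14 libraries and 0 over 16, again near those shares. Beside Xbp1 this was Edem1, a lectin-like protein that directs misfolded glycoproteins to degradation, at 0.80 ± 0.22 (adjusted p = 0.0204). Dnajb9, a cochaperone of Hspa5 and a target of spliced Xbp1, differed by -0.40 without passing (adjusted p = 0.161).

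No gene was called among 15 ER chaperone and ATF6 genes or 10 genes of ER-associated degradation in odor pools in either set. An unadjusted p under 0.05 was given by limma to 2 chaperone and 0 degradation genes over 14 libraries, and to 1 and 0 over 16. In vehicle pools over 14 libraries 1 chaperone list gene was called, Creld2, an ER stress-inducible protein, which was lower by a difference of -0.57 (adjusted p = 0.035). List medians in odor pools were -0.02 for the chaperones and -0.04 for degradation, against -0.08 for all genes. In the pool means 0 genes of these 7 lists were called between odor and vehicle.

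Genes raised by neuronal activity and immediate early genes differed between fractions in opposite directions. Of 6 activity genes, 5 were called lower in odor titled GFP+ over 14 libraries and 2 over 16. The 5 include S100a5, the gene the mice report, on which the sort bears directly. Of 16 immediate early genes, 11 were called higher over 14 libraries and 10 over 16. Of all genes, 4.59% were called lower and 8.59% higher over 14 libraries, and 2.39% and 4.57% over 16. Xbp1 ran with the immediate early genes, and the part of either set in its difference was not tested.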

How the data were processed

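RNA (50 to 100 ng) from 16 sorted libraries was labelled and hybridised to Affymetrix arrays, per the labels' protocols. The authors deposited 1 table of log2 values; per the submitters' processing notes it came from Affymetrix Expression Console, and its version, normalization and build are not stated in the sources used here. Of 28846 probe sets, 19572 carried 1 gene symbol, which left 19505 genes at the brightest probe set. Arrays have no read depth, and their number limits precision. The members and lists were chosen with earlier results of these data known, as were the 14 libraries.

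Differences were tested on the deposited values with limma 3.58.1 in R 4.3.3 (1 mean per group, eBayes, two-sided), with Benjamini-Hochberg adjustment across all genes (threshold 0.05). Pool means used the same test, with exact permutation over 70 arrangements for members. The tests were tested on simulated data. Named were all members, S100a5 and Omp, up to 3 genes per list by p in odor fractions, up to 2 in pool means, and the 2 genes most like each member. Library medians ran from 6.13 to 6.45. Pools of the same mice pair libraries within a treatment, per the labels' counts of 24 mice in groups of 3. Same-pool deviations from group means correlated at 0.13 to 0.25 in odor and -0.75 to -0.06 in vehicle. The vehicle means include pool 3, whose fractions ran the other way, so the vehicle correlations do not measure the pairing. Promoters came from RefSeq. Alternatives covered pairing, scaling, probe sets, low genes, moderation, the groups fitted and left-out libraries.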

Additional observations from a re-analysis of the deposited data

Results flagged for a closer look

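Kdm1a in odor titled GFP+ replicate 1 stood apart from the other libraries of its group, at 10.923 against 10.67 to 10.68 in the other 3 (Dixon's gap test for groups of 4). It was the only such library among 40 groups examined, where chance gives about 1 in 20. The odor titled GFP- library of the same pool was also the highest of its group, at 11.05. The cause was not tested.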

How the results depend on the processing

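For 36 member results 783 alternative values were computed. Of these, 715 kept their direction and their side of the threshold, 53 changed sign, 12 lost a call and 3 gained one. The cause of each change was not tested unless named. Over 14 libraries this tally covers Xbp1 and Rtp2 only. It leaves out odor against vehicle within a single fraction, and covers only Xbp1 in the difference of fraction differences. Calls that Atf5, Hspa5 and Rtp1 gained over 14 libraries under median centring are therefore not among those 3. Leaving out vehicle pool 3 changed the genes called to 2570 (1 member, Xbp1) in the odor fraction comparison, 2180 in the vehicle one, 7 between odor and vehicle in titled GFP+, 5 in titled GFP- and 2 in the difference of fraction differences. It turned Ddit3 to -0.16 in vehicle pools, and Atf4 to -0.0025 and Rtp2 to 0.0418 in the pool means. Centring arrays on their medians gave 5741 called genes in odor over 16 libraries and 10078 over 14 (4 members), and 8397 in vehicle over 14 (4 members). Under that centring the odor differences became -0.21 for Atf4, -0.34 for Hspa5, -0.18 for Ddit3, -0.25 for Ldb1 and -0.30 for Kdm1a, and the vehicle ones -0.0075 for Xbp1, -0.17 for Ddit3, -0.17 for Lhx2, -0.15 for Ldb1 and -0.15 for Kdm1a. The share of odor calls that were higher in titled GFP+ over 14 libraries was 65.2% as deposited, 13.3% after centring and 49.3% after quantile normalization, and over 16 libraries 65.6%, 17.7% and 53.2%. In vehicle over 14 libraries it was 70.3%, 15.8% and 52.8%. Quantile normalization turned Lhx2 (0.0492) and Rtp1 (0.0472) in odor, Atf5 (0.0168) and Atf4 (0.0167) in vehicle and Atf5 (0.00049) in the pool means, and called 11 genes in titled GFP+ over 14 libraries.

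Trend and robust moderation called 896 genes in odor over 16 libraries, and leaving out low genes called 13 in titled GFP+ over 14. Fitting only the groups compared called 2315 genes in odor over 16 libraries, 0 members in odor over 14, 0 genes in titled GFP+ over 14, and 1 gene in titled GFP- over 16 libraries and 3 over 14. With each pool as a fixed term, a replicate block added after seeing the data, 2 genes were called in odor over 16 libraries and 0 members over 14, and 0 and 1 genes in the difference of fraction differences over 16 and 14. Pools as a block with an estimated correlation changed no member's call. The number shared across treatments, as a replicate block, called 1 gene in titled GFP+ over 14 libraries, 4 in titled GFP- over 16, and 9 and 0 in the pool means over 8 and 7 pools. Odor and vehicle libraries share only that number: correlations of same-numbered deviations ran from -0.20 to 0.43, with vehicle deviations taken from means that include pool 3.

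Leaving out 1 library at a time, the odor difference ran from -0.11 to 0.28 for Atf4, -0.038 to 0.0349 for Hspa5, -0.0362 to 0.18 for Kdm1a, -0.11 to 0.0586 for Lhx2 and -0.10 to 0.0137 for Rtp1. The vehicle difference ran from -0.13 to 0.22 for Atf4, -0.0938 to 0.0318 for Atf5, -0.14 to 0.16 for Ddit3, -0.0756 to 0.11 for Kdm1a, -0.0803 to 0.13 for Ldb1, -0.0312 to 0.0766 for Lhx2 and -0.18 to 0.0146 for Rtp1. The Xbp1 difference of fraction differences ran from -0.0489 to 0.17 over 14 libraries. Leaving out 1 pool, the pool means difference ran from -0.0919 to 0.13 for Atf4, -0.0764 to 0.0105 for Atf5, -0.0567 to 0.10 for Ldb1 and -0.17 to 0.0418 for Rtp2. Genes called ran from 2 to 2184 in odor and 0 to 1163 in vehicle over 16 libraries. The odor count over 16 libraries was 2 or 3 without any 1 odor library other than titled GFP+ replicate 4. Members called in odor over 14 libraries were 0 or 1. Genes called over 16 and 14 libraries ran from 0 to 3 and 0 to 10 in titled GFP+, 1 to 5 and 1 to 6 in titled GFP-, and 0 to 2 and 1 to 3 in the difference of fraction differences; over 7 pools they ran from 0 to 1.

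Every member averaged above the negative control median, and each group held 4 arrays.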
